A study of Mus musculus with 3 samples.

Results

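The thymic epithelial and stromal cells of 3 single-cell RNA libraries of mouse thymus are described here. Cells with at least 500 genes and less than 10% mitochondrial UMIs (unique molecular identifiers, each standing for 1 captured RNA molecule) were kept. A cell was a member if its Krt8, Krt18, Krt5, Krt17 and Epcam UMIs summed to at least 3 (the epithelial arm), or if its Col1a1, Col1a2, Col3a1, Sparc and Dcn UMIs summed to at least 5 (the mesenchymal arm). The rule found 192 members among 23864 filtered cells (0.805%). Of these, 155 met the epithelial criterion, 51 the mesenchymal criterion and 14 both. The members were chosen by the same RNA counts that are described, so every level and ratio below is a description and no test was made.

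Female mice of 4 weeks with germline p53 alterations were the source of all 3 libraries, and each genotype (p53+/-, p53 AD/- or p53-/-) gave 1. The series compares thymic cell populations across these genotypes, and its design text calls the reference animals wild type where the sample label reads p53+/-. The p53+/- and p53 AD/- animals also carry a null allele, so no animal had an unaltered pair of p53 alleles by its label. The AD change is not spelled out in the labels, although p53 dimers appear in the title of the series. The background is labelled as equal parts BALB/C and a C57BL strain, written C57BL6, C57BL7 and C57BL8 for the p53+/-, p53 AD/- and p53-/- animals. With 1 library per genotype, the genotype, the animal and the library preparation cannot be told apart.

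The thymic stroma is the scaffold in which T cells mature. Cortical epithelial cells attract and feed early progenitors and present the peptides on which thymocytes are positively selected, whereas medullary epithelial cells display proteins of many peripheral tissues, in part under the regulators Aire and Fezf2, so that self-reactive thymocytes are removed or diverted. Fibroblasts build the capsule, the septa and the perivascular matrix and supply growth factors to the epithelium, and endothelial cells are the gate through which progenitors enter and mature T cells leave.

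The libraries held 8880, 6308 and 9889 barcodes and 46498800, 27638820 and 54164425 UMIs for p53+/-, p53 AD/- and p53-/-, of whose barcodes 8150, 6171 and 9543 cells were kept. The 23672 filtered cells that were not members had a median of 2991 UMIs and 1422 genes. Between 15 and 29 barcodes were shared by each pair of libraries, and 1 member was among them. Trp53 had 86.1, 90.9 and 74.9 CPM (counts per 1000000 UMIs) in the filtered cells of p53+/-, p53 AD/- and p53-/-. Since the deleted stretch of Trp53 is not described, its UMIs in the p53-/- library do not check the label. Exact intervals, given in brackets, are at the 95% level and cover counting error only.

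The p53+/- library gave 70 members (0.859% [0.670 to 1.08] of its filtered cells, exact Clopper-Pearson interval). The p53 AD/- library gave 38 (0.616% [0.436 to 0.844]), and the p53-/- library gave 84 (0.880% [0.703 to 1.09]). The 3 intervals overlapped. The epithelial arm held 58, 30 and 67 cells and the mesenchymal arm 14, 12 and 25, in the order p53+/-, p53 AD/- and p53-/-, which is kept throughout. Just outside the epithelial threshold, 62, 16 and 81 cells had a sum of 2 UMIs, and just inside it 20, 3 and 20 cells had a sum of 3. The mesenchymal threshold lay in a sparse range, with 1 cell per library at a sum of 4 and 2, 0 and 0 cells at a sum of 5. The highest sums were 248, 1624 and 697 UMIs in the epithelial arm and 2859, 953 and 615 in the mesenchymal arm.

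The 10 genes of the rule did not mark their arms equally. The collagen genes Col1a1, Col1a2 and Col3a1, the matrix glycoprotein gene Sparc and the proteoglycan gene Dcn had between 96.8% and 98.3% of all their UMIs in the mesenchymal arm, and 0.173% to 0.384% of other filtered cells had a UMI of any of them taken singly. The keratin genes Krt8, Krt18, Krt5 and Krt17, which encode intermediate filament proteins of epithelia, had 87.9% to 96.2% of their UMIs in the epithelial arm. Epcam, an epithelial adhesion molecule, had 62.0% of its UMIs there, and 3.15% of other filtered cells (745 of 23672) had at least 1 Epcam UMI. Since the rule capped these genes in the cells outside the arms, the shares are a description of the rule.

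Without their Epcam UMIs, 74 of the 155 cells of the epithelial arm would not have reached the threshold, that is, their keratin UMIs summed to less than 3. There were 38, 8 and 28 such cells (0.466% [0.330 to 0.639], 0.130% [0.0560 to 0.255] and 0.293% [0.195 to 0.424] of filtered cells). Cells with at least 3 keratin UMIs numbered 20, 22 and 39. The share of the arm that rested on keratins therefore differed between libraries, from 20 of 58 cells in p53+/- to 22 of 30 in p53 AD/-. The rule is a fixed cut on UMIs, and the libraries differed in depth. Filtered cells that were not members had medians of 3227, 2476 and 3049 UMIs. The part of depth in the counts was not tested.

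To check the label, each member was sorted by the marker list, with the rule genes left out, that held the most of its UMIs (at least 10, no ties). The lists were epithelial (cortical, medullary and pan epithelial joined), fibroblast, endothelial, pericyte, mesothelial, thymocyte, macrophage, dendritic cell, B cell, erythroid and platelet. The granulocyte list and the remaining lists took no part in the sorting. Of the 74 Epcam-carried cells, 70 were led by the thymocyte list (37, 7 and 26), 3 by the B cell list and 1 by the dendritic cell list. The data thus go against the epithelial label for these cells, and they are called Epcam-carried below. Of the 81 keratin-positive cells, 56 were led by the epithelial list, 44 of them in the epithelial arm alone and 12 in both arms, and 2 cells of both arms were led by the fibroblast list. The remaining keratin-positive cells were led by the thymocyte list (13), the macrophage list (3) or no list (7). Of the 37 cells of the mesenchymal arm alone, 24 were led by the fibroblast list, 8 by the endothelial list and 5 by the thymocyte list. A list second within 2-fold of the leading list occurred in 13 members.

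**Figure D1:**
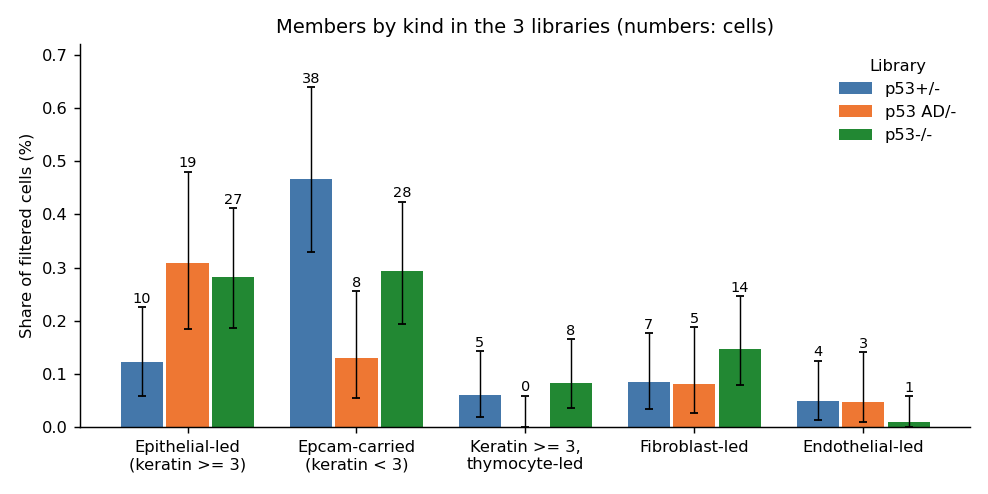
Share of filtered cells (%, vertical axis) for 5 kinds of member in each of the 3 libraries, 1 library per genotype; bars start at 0 and error bars are exact Clopper-Pearson 95% intervals for counting error. Epcam-carried cells were 0.466%, 0.130% and 0.293% of cells, and epithelial-led cells 0.123%, 0.308% and 0.283%.

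**Figure D2:**
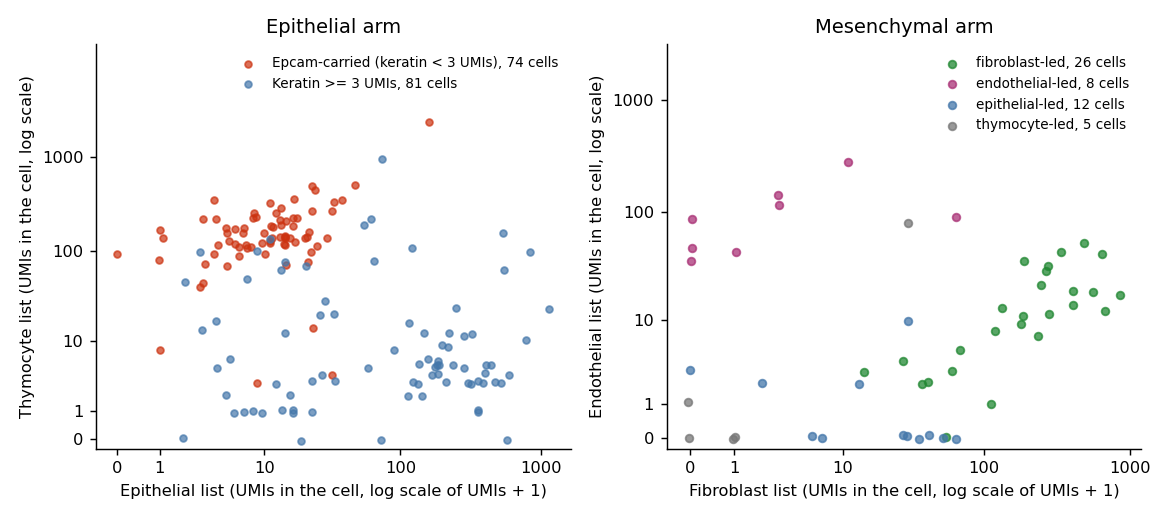
Each point is 1 member, placed by its UMIs of marker lists without the rule genes, on log axes of UMIs plus 1: epithelial against thymocyte list for the epithelial arm (left, Epcam-carried or keratin-positive cells), and fibroblast against endothelial list for the mesenchymal arm (right, by leading list). Most of the 74 Epcam-carried cells lie at high thymocyte and low epithelial counts, many of the 81 keratin-positive cells lie at the reverse, and the 8 endothelial-led cells lie above the 26 fibroblast-led cells in endothelial UMIs relative to fibroblast UMIs.

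No list of early thymocyte genes was counted in the Epcam-carried cells, and the genes named here were picked from those with the highest ratios after their values were seen. The genes with the highest ratio over other filtered cells included Myl10 (234, 16 and 121 UMIs, in 49 of 74 cells, 13.6-fold), Il2ra, the interleukin 2 receptor alpha chain that marks CD4 and CD8 double-negative progenitors (146, 16 and 121 UMIs, in 44 cells, 10.8-fold), Notch3 (71 UMIs in 34 cells, 8.04-fold) and Hes1, a target of Notch signals (339 UMIs in 45 cells, 7.53-fold). Ptcra, the pre-T cell receptor alpha chain, had 224 UMIs in 54 cells (3.71-fold). The coreceptor genes Cd4 and Cd8a stood at 33.6 and 192.5 CPM, against 241.5 and 661.1 in other cells. Of the 18 pan epithelial genes 6 were detected, 1 reached 20 UMIs and 0 were past 4-fold, beside 61 of 6383 genes (0.956%) past 4-fold over all genes. All 18 thymocyte genes had 20 UMIs and 0 were past 4-fold, with a median log2 ratio of -0.65. Of the B cell genes 2 of 4 were past 4-fold, and of the dendritic cell genes 1 of 3. Thymocyte genes made up 1.05% of the UMIs of these cells, against 0.0677% in epithelial-led cells and 1.75% in other filtered cells.

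The 13 keratin-positive cells led by the thymocyte list (5, 0 and 8) had between 14 and 961 thymocyte UMIs each, and their thymocyte share (1.70%) was close to that of other filtered cells. In these cells 29 of 974 genes (2.98%) were past 4-fold. The gene with the highest ratio was Tbata, a thymic epithelial gene, with 72% of its 25 UMIs in 1 cell. Whether these barcodes hold a thymocyte together with an epithelial cell or its fragments was not tested, and no doublet caller was run. The 3 macrophage-led cells had 374 to 1508 UMIs of the macrophage list beside 3 or more keratin UMIs, and the 7 cells led by no list were shallow, with 956 to 3948 UMIs.

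The 56 epithelial-led cells numbered 10, 19 and 27 (0.123% [0.0589 to 0.226], 0.308% [0.185 to 0.480] and 0.283% [0.187 to 0.411] of filtered cells). The p53+/- share was the lowest, with an interval that overlapped both others. These cells were deep, with a median of 15184 UMIs and 3791 genes, and all their UMIs came to 1084911. Thinned to 5000 UMIs, the 46 cells with that depth had a median of 1981 genes, against 1879 in the 6416 other filtered cells of that depth. The median mitochondrial share was 4.14%, 1.40% and 3.28%, and 14 of the 56 cells had at least 10 thymocyte UMIs (3, 3 and 8).

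Epithelial identity genes outside the rule were high in these cells. Of 18 pan epithelial genes, 17 of the 18 with at least 20 UMIs were past 4-fold over other filtered cells, with a median log2 ratio of 10.01 beside 0.33 over all 7055 genes with 20 UMIs. Over all those genes 1955 (27.7%) were past 4-fold, and since the sorting used these lists, the contrast is given as a description alone. Dsp, which encodes the desmosomal protein desmoplakin, had 59, 165 and 315 UMIs in 42 cells. Cdh1, which encodes E-cadherin, had 32, 49 and 101 UMIs in 39 cells. The transcription factor genes of the thymic anlage Pax1 and Pax9 had 54 and 41 UMIs in 23 and 25 cells, and Foxn1, the master regulator of thymic epithelium, had 19, 45 and 34 UMIs in 4, 6 and 11 cells.

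Genes on the lists of other cell types ranged from low to high. None (0) of the 13 thymocyte genes with 20 UMIs was past 4-fold, and their median log2 ratio was -4.61. The endothelial list had 9 of 18 genes at 0. Of 12 macrophage genes, 8 were detected and 2 of the 3 with 20 UMIs were past 4-fold (median log2 ratio 2.52, led by Lyz2 and Hpgd), while C1qc, Mertk, Fcgr1 and Timd4 were at 0. Of the dendritic cell genes 3 of 4 were past 4-fold, with a median of 2.76. Stromal lists stood high. Pericyte and smooth muscle genes, led by Tagln, Acta2 and Rgs5, were 4 of 4 past 4-fold, with a median of 10.12, and medullary fibroblast genes 7 of 7, with a median of 7.97. Of the fibroblast list 6 of 7 genes were past 4-fold, with a median of 8.50, led by Mgp, Col6a1 and Col6a2. At least 5 fibroblast genes were found in 16 of the 56 cells, up to 8 of 20, and at least 5 medullary fibroblast genes in 10, up to 6 of 10. The part of these lists in the other values was not tested. Col1a1 was at 21 UMIs, all in 1 p53-/- cell, and Pdgfra, a defining fibroblast receptor, at 0. The granulocyte genes S100a8 and S100a9 reached 543 and 524 UMIs, whereas Elane, Retnlg and Mmp8 were at 0 and Ngp at 1 UMI. Of the 3 granulocyte genes with 20 UMIs, 0 were past 4-fold over other filtered cells, with a median log2 ratio of 0.87.

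At the same cut of 5 genes, more cells met the medullary list than the shorter cortical list. At least 5 of the 15 medullary genes were detected in 42 of the 56 epithelial-led cells (8, 13 and 21), up to 13 genes in a cell, against 4 of 23672 other filtered cells. At least 5 of the 12 cortical genes were detected in 16 cells (2, 3 and 11), up to 10 genes, against 1 other filtered cell. The number of genes detected rises with depth, and the median depth was 15184 UMIs in the epithelial-led cells and 2991 in the other filtered cells. The sorting that chose the epithelial-led cells used both lists, so the contrasts with other filtered cells are a description alone.

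Of the cortical genes, Psmb11, the catalytic subunit of the thymoproteasome that is found in cortical epithelium, had 0, 0 and 14 UMIs, the latter in 3 cells. Its 48 UMIs in other filtered cells lay in 48 different cells, so its level elsewhere was at 1 UMI per cell. Prss16, a serine protease of the cortical class II pathway, had 5, 11 and 66 UMIs in 3, 3 and 10 cells. Ccl25, the chemokine that draws progenitors through Ccr9, had 14, 48 and 191 UMIs in 4, 7 and 9 cells. Dll4, the Notch ligand that commits progenitors to the T lineage, had 0, 10 and 6 UMIs in 0, 3 and 2 cells. Ctsl, a protease that trims class II ligands, had 28, 142 and 937 UMIs, but it was also present in other filtered cells at 693.4 CPM. Il7, the survival cytokine of progenitors, had 14, 18 and 78 UMIs in 4, 7 and 16 cells, and Cxcl12 had 4, 2 and 50 in 1, 1 and 10. All of these cortical genes were highest in the p53-/- cells except Dll4. The list sum was 557, 1129 and 3759 CPM, and the cell with the most gave between 17.7% and 29.9% of it in each library.

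Of the medullary genes, Krt14 had 129, 231 and 291 UMIs in 8, 13 and 20 cells, or 553, 569 and 653 CPM, and was similar in the 3 libraries. Aire, which promotes the expression of tissue-restricted antigens, had 122, 89 and 82 UMIs in 6, 6 and 9 cells, or 523 [434 to 625], 219 [176 to 270] and 184 [146 to 228] CPM (exact Poisson intervals). Aire was highest in the p53+/- cells, in which 6 of 10 cells had it. The cell with the most held 40, 39 and 41 Aire UMIs and the next 36, 30 and 15, so these levels rest on few cells. In other filtered cells Aire was found in 52 of 23672. Fezf2, which directs a further set of such antigens, had 77, 159 and 108 UMIs in 7, 14 and 17 cells. Ccl19, a ligand of Ccr7, had 205, 72 and 124 UMIs. Ccl21a, the other Ccr7 ligand, which draws positively selected thymocytes to the medulla, had 616, 1080 and 2714 UMIs in 7, 11 and 17 cells, or 2641, 2661 and 6088 [5861 to 6321] CPM. Near-identical gene copies of Ccl21a could share its reads. The p53-/- level was above the others, and no more than 452 of its UMIs lay in 1 cell. The medullary list sum was 6825, 6535 and 9208 CPM.

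**Figure D3:**
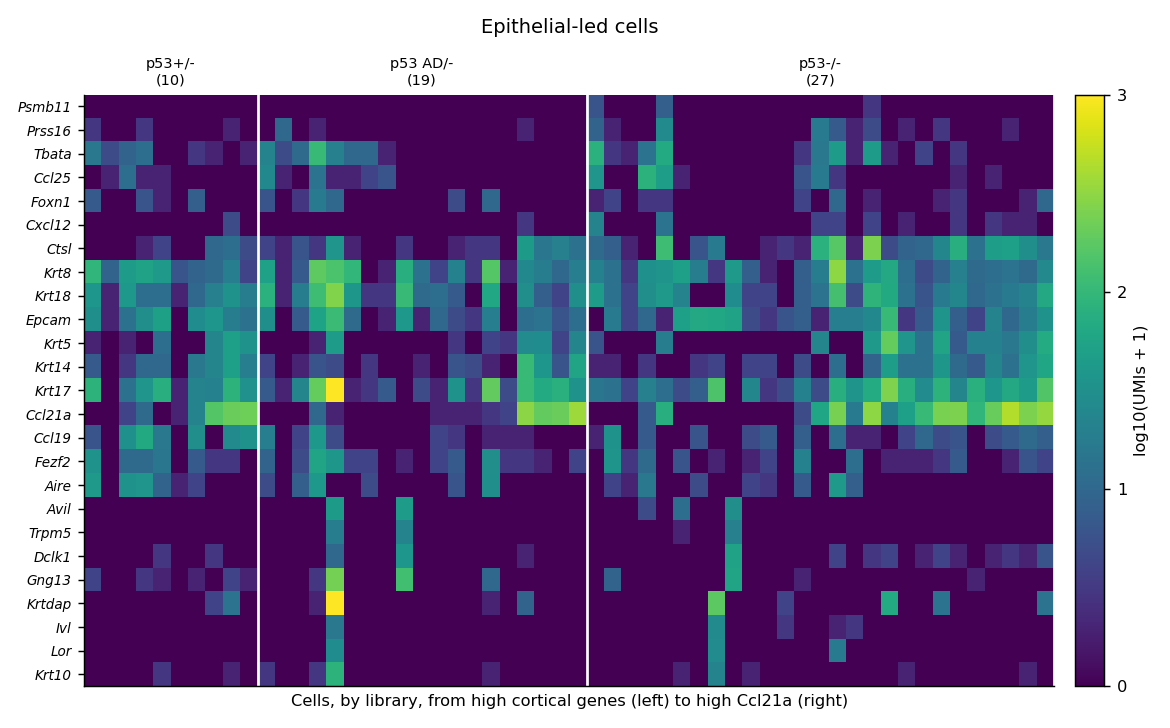
UMIs of 25 genes (vertical axis) in the 56 epithelial-led cells (horizontal axis, grouped by library), as log10 of UMIs plus 1 with the colour scale capped at 3. Cells are ordered within each library from high cortical genes to high Ccl21a. Krt5 and Krt14 are high in the cells with high Ccl21a at the right of each library, and Aire lies mostly in other cells.

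The epithelial-led cells separated by Ccl21a. Cells with at least 10 Ccl21a UMIs numbered 5, 4 and 15, and the 32 others had 32 Ccl21a UMIs in all. The Ccl21a cells held 722 of the 791 Krt5 UMIs, in 20 of 24 cells (1670 CPM, against 106 in the others). Krt14 stood at 1362 CPM, against 95. Tagln and Acta2, contractile genes of smooth muscle and myoepithelium, had 634 UMIs in 16 cells and 386 in 17, against 7 in 5 and 11 in 3. Il7 had 94 UMIs in 17 cells, against 16 in 10. Ctsl stood at 2327 CPM, against 155. Krt8 did not separate them, at 1728 and 1725 CPM. Median depth was alike, at 14790 and 15769 UMIs. The cuts on Ccl21a and Aire were chosen after the data were seen.

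The 21 cells with Aire and the 35 without it gave the reverse picture. Krt5 had 19 UMIs in the Aire cells (34.1 CPM) and 772 in the others (1463 CPM). Cd74, the class II invariant chain, stood at 18487 CPM, against 6602, and H2-Aa, a class II chain, at 5427, against 2146. Fezf2 stood at 468 CPM, against 157, Ccl19 at 506, against 226, and Tnfrsf11a, the receptor for RANK ligand, at 152.5, against 77.7. Of the 543 S100a8 UMIs, 535 lay in 9 of the Aire cells, and of the 524 S100a9 UMIs 517 lay in 8. Fgf21, a hormone gene best known from liver, had 277 UMIs in 14 Aire cells and 19 UMIs in 11 others. The Aire cells were deeper, with a median of 22989 UMIs against 13322. Only 4 cells had both Aire and at least 10 Ccl21a UMIs.

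Small numbers of cells carried programmes named after peripheral epithelia. At least 5 of 11 tuft-like genes were found in 4 cells (0, 2 and 2), with up to 10 genes in p53 AD/- and 11 in p53-/-, against at most 3 in any other filtered cell. All 4 were without Aire. Avil, an actin-binding protein of tuft cells, had 0, 85 and 44 UMIs, and Trpm5, their taste-transduction channel, 0, 38 and 20. At least 5 of 10 keratinocyte-like genes were found in 5 cells (0, 2 and 3), up to 9 genes, against at most 2 in other filtered cells. Krtdap, a gene of the cornifying epidermis, had 16, 1708 and 270 UMIs, and 1698 of those in p53 AD/- lay in 1 cell of 97428 UMIs. That cell also had 478 Sbsn, 42 Avil and 235 Gng13 UMIs, so keratinocyte-like and tuft-like genes met in the same barcode. At least 5 of 8 secretory and microfold-like genes were found in 4 cells (0, 2 and 2), and at least 5 of 9 muscle-like genes in 0. None of the p53+/- cells reached 5 tuft-like, keratinocyte-like or secretory genes. That library gave 10 epithelial-led cells, so a small share of such cells was not detectable there.

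Genes found in a few cells at high level led the epithelial arm as a whole. Of 10217 genes with at least 20 UMIs in the arm, 1863 (18.2%) were past 4-fold. The highest ratios belonged to Cyp2a5, an olfactory and liver cytochrome (0, 243 and 26 UMIs, in 8 cells, at least 4081-fold), Fabp9, a testis fatty acid binding protein (32, 772 and 4, in 9 cells, 3678-fold), Hamp2, a hepcidin paralogue (0, 14 and 193, in 5 cells), Rptn, a cornified envelope protein (7, 164 and 9, in 7 cells), Lypd2 (3, 189 and 36, in 13 cells) and Fgf21 (100, 128 and 68, in 25 cells, 2245-fold). Scgb1a1, the secretoglobin of club cells in the airway, had 0, 333 and 202 UMIs in 6 cells. Of the 25 leading genes, Hamp2 had 92.3% of its UMIs in 1 cell and Krtdap 85.0%, whereas Ccl21a had 10.2% and Fxyd3 was found in 46 cells. High ratios thus came from both widely shared genes and genes of 1 or a few cells.

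To describe this without a threshold on the ratio, genes with at least 5 UMIs in the epithelial-led cells and 0 UMIs in all 23672 other filtered cells were counted and are called private. There were 391 private genes among 12424 (3.15%). Of these, 97 were found in 1 cell and 122 had at least 90% of their UMIs in a single cell. The median private gene was found in 3 cells. In the fibroblast-led cells 72 of 7548 genes were private (0.954%), of which 3 were in 1 cell, and the median was 5 cells. In the endothelial-led cells 12 of 1864 (0.644%) were private. The sets differ in cells and depth, which also set these counts. Without the 2 deepest cells, 329 of 11765 genes (2.80%) were private in the epithelial-led cells and 97 were in 1 cell.

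Some single barcodes carried sets of private genes that belong to unrelated tissues, and the examples were picked after their values were seen. No doublet caller was run, so whether any of these barcodes holds several cells was not tested. All the examples shown had Aire UMIs. The examples leave out a p53 AD/- cell of 97428 UMIs with 102 private genes, led by Il1f6 (51) and Klk10 (35), beside 0 Aire UMIs. Also left out is a p53+/- cell of 39140 UMIs with 72, led by Clca1 (20), beside 36 Aire UMIs. The same holds for p53-/- cells with 58, 56 and 40 private genes, beside 6, 15 and 7 Aire UMIs. A p53-/- cell of 55025 UMIs had 110 private genes, among them Krt81, a hair keratin (65 UMIs), Mat1a, the liver methionine adenosyltransferase (42), and Fgf4, an embryonic growth factor (32), beside 41 Aire and 242 Ccl21a UMIs. A p53 AD/- cell of 92154 UMIs had 93, among them Defa22, a Paneth cell defensin (62), Tac2, a neuropeptide precursor (35), and Amelx, the enamel protein amelogenin (26), beside 39 Aire UMIs. A p53 AD/- cell of 31514 UMIs had 77, among them Dcpp1, a salivary protein (57), and Ctsj, a placental cathepsin (47), beside 30 Aire UMIs. A p53-/- cell of 22989 UMIs had 72, among them Spp2 (29) and Bdnf, a neurotrophin (24), beside 4 Aire UMIs. Private genes were 2.36% of the UMIs of that cell. A p53+/- cell of 23001 UMIs had 34, among them Csn1s2a, a milk casein (23), Amtn, a protein of enamel maturation (23), and Rhox12, a homeobox gene of reproductive tissue (20), beside 34 Aire UMIs.

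Some tissue genes that were not private, picked after their values were seen, had high counts in single barcodes, which were not checked for doublets. Oxt, the oxytocin precursor, had 118 UMIs in a p53+/- cell. Calca, the calcitonin gene, had 157 in another p53+/- cell, and Npy, a neuropeptide, had 153 in a p53 AD/- cell. Csn2, a milk casein, had 268 in a p53 AD/- cell and 167 in a p53-/- cell. Defa30 had 458, 62 and 41 UMIs in 3 p53-/- cells. All 3 of those cells also had Csn2.

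The number of private genes per epithelial-led cell ran from 0 to 110, with a median of 14. In the 21 cells with Aire the median was 29 (2 to 110), and in the 35 without it 12 (0 to 102). The Aire cells were also deeper. As a share of the UMIs of a cell, private genes had a median of 0.537% with Aire and 0.131% without. Among cells of at least 5000 UMIs the median number was 33 with Aire (19 cells) and 13 without (27 cells). The Aire cells were still deeper in that subset, with a median of 23001 UMIs against 15053, so the cut did not even out depth. By library the median number was 22, 11 and 14. The p53 AD/- cell of 97428 UMIs had 102 private genes and 0 Aire UMIs, so high numbers were not limited to cells with detected Aire.

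**Figure D4:**
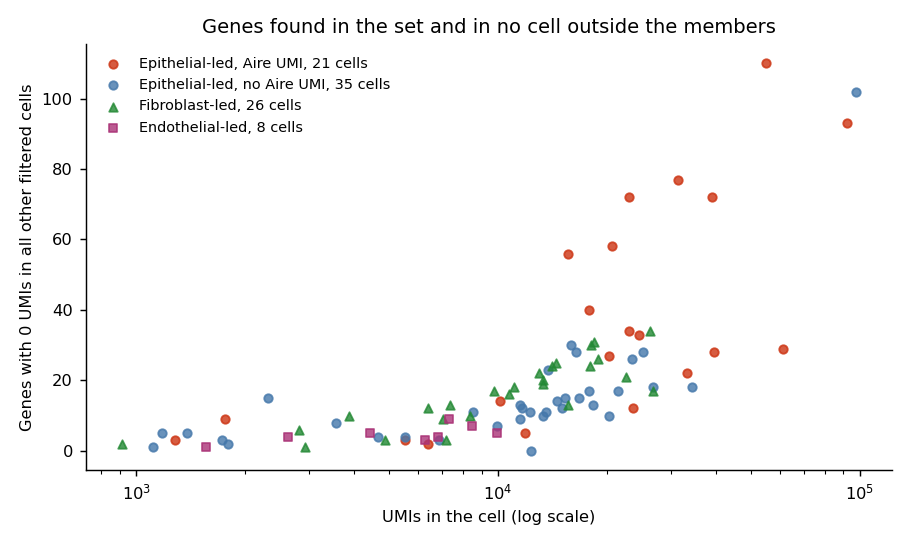
Private genes per cell (vertical axis) against the UMIs of the cell (horizontal axis, log scale) for the epithelial-led cells with Aire (21) and without it (35), the fibroblast-led cells (26) and the endothelial-led cells (8), each with the private genes of its own set. Epithelial-led cells with Aire had a median of 29 private genes and those without it 12, and the counts are higher in deeper cells of every set.

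Private genes of the same cell lay near each other more often than those of different cells. Among pairs on 1 chromosome, 26 of 392 with the same top cell were within 200 kb (6.63%), against 53 of 3721 pairs with different top cells (1.42%). Clusters of paralogues such as the defensins can share reads, and their part in the difference was not tested.

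The promoters of private genes are shown because TATAAA was more frequent in them than in those of the other genes that these cells express. Windows are from RefSeq on GRCm38.p6, and TATAAA, the core of a TATA box, was searched for in the 50 bases before each gene start. On the strand of the gene, 30 of 258 private protein-coding genes with a window (of 334) held it (11.6%), against 211 of 9175 protein-coding genes (of 11571) with at least 5 UMIs in epithelial-led cells that were also found in other cells (2.30%) and 613 of 16571 protein-coding genes in all (3.70%). Over every gene of any kind with a window the share was 3.15% (851 of 27025). On the opposite strand, read as TTTATA, the protein-coding shares were 1.16%, 0.599% and 1.10%. The private windows held a median of 3 CG pairs before the start, against 17 for the genes also found in other cells, 11 for all protein-coding genes, 6 for all genes and 9 for the private genes of fibroblast-led cells. For the fibroblast-led cells 2 of 45 private genes held TATAAA (4.44%). A match is a description of the letters in the window. The 6 private genes with the most UMIs among those with the motif are shown as the 100 bases before their start, 5′ to 3′ on the strand of the gene, with the motif in capitals, followed by the medullary regulator Aire, which also holds it, and by Ccl21a, which does not hold it in this window.
Sbpl chr17:23955274-23955373 (- strand): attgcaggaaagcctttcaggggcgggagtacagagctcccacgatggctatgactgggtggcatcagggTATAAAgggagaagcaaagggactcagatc
Defa22 chr8:21162177-21162276 (+ strand): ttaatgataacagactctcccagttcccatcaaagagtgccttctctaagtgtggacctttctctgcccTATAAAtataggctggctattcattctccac
Prss29 chr17:25318554-25318653 (+ strand): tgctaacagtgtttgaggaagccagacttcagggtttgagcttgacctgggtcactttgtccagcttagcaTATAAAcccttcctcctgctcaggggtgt
Prr9 chr3:92123948-92124047 (- strand): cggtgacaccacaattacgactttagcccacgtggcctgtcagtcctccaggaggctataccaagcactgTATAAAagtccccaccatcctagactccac
Cxcl3 chr5:90786001-90786100 (+ strand): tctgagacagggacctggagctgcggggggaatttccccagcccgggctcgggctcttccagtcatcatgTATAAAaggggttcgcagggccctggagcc
Amelx chrX:169187210-169187309 (- strand): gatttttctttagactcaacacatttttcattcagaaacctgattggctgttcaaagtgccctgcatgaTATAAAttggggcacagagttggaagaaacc
Aire chr10:78043611-78043710 (- strand): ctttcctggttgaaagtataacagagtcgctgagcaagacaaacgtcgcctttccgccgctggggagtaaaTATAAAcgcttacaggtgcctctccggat
Ccl21a chr4:42773992-42774091 (- strand): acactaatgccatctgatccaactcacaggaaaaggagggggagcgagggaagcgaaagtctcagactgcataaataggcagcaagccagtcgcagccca
In each of the 6 private windows the motif began 29 to 31 bases before the gene start. Sbpl had 76 UMIs in 5 cells, Defa22 had 63 in 2, Prss29, a serine protease, 55 in 2, Prr9 41 in 2, Cxcl3, a chemokine, 38 in 3, and Amelx 33 in 3. The cell with the most gave 37, 62, 45, 38, 35 and 26 of these UMIs.

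The products through which the epithelium acts on thymocytes differed in how many of the 56 cells held them, with Dll4 in 5 and Cd74 in 54. Of 31 thymopoietic ligands and related genes, 18 had at least 20 UMIs in epithelial-led cells and 15 of these were past 4-fold, with a median log2 ratio of 5.95. Over all genes 27.7% were past 4-fold and the median was 0.33. Antigen presentation genes followed, with 13 of 18 past 4-fold and a median of 3.46. Cd74 had 2279, 6501 and 5007 UMIs in 10, 19 and 25 cells (9770, 16019 and 11231 CPM), and H2-Aa had 809, 1590 and 1758 in 10, 18 and 25 cells. Both were found in at least 25 of 27 p53-/- cells and all 10 p53+/- cells.

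The genes known as p53 targets were listed too, since the genotypes concern p53, and the list and its sums include Trp53. Of 13 members with 20 UMIs in epithelial-led cells, 5 were past 4-fold over other filtered cells, with a median log2 ratio of 0.70, beside 27.7% past 4-fold and a median of 0.33 over all genes. Trp53 itself had 24, 34 and 18 UMIs (103 [65.9 to 153], 83.8 [58 to 117] and 40.4 [23.9 to 63.8] CPM). Cdkn1a, the cell cycle inhibitor p21, had 18, 103 and 76 UMIs in 2, 9 and 8 cells, and 80 of its UMIs lay in 1 cell. Mdm2, the ubiquitin ligase that limits p53, had 22, 35 and 21, and Ccng1 had 12, 10 and 19. Phlda3 had 27, 28 and 62. Perp, also a desmosomal gene of epithelia, had 35, 162 and 107, of which 112 lay in 1 cell. The list sum was 1012, 1503 and 1362 CPM, and 1 cell gave 48.4% of the p53 AD/- sum. No order by genotype was shared by these genes. The dissociation stress list, of genes that handling of tissue can raise, stood at 2581, 3647 and 5211 CPM, and its part in these values was not tested. The cell cycle list stood at 1278, 205 and 184 CPM, with 88.6% of the p53+/- sum in 1 cell.

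The mesenchymal arm mixed matrix, endothelial and epithelial genes, and 12 of its 51 cells were epithelial-led (1, 3 and 8). Of 5377 genes with at least 20 UMIs in the arm, 1502 (27.9%) were past 4-fold. Cxcl13, a chemokine of lymphoid stroma, had the highest ratio (274, 0 and 208 UMIs, in 8 cells, 14815-fold). Mfap5, a microfibril protein, had 420, 367 and 199 UMIs in 19 cells. Adamts5, an aggrecanase, had 77, 29 and 23 UMIs in 23 cells and 0 UMIs in other filtered cells (at least 7930-fold, against a floor of 3 UMIs over all those cells). Serping1, the C1 inhibitor, had 154, 76 and 97 UMIs in 30 cells, and Pdgfra had 45, 18 and 26 in 16. All 20 fibroblast genes had at least 20 UMIs and were past 4-fold, as were all 19 basement membrane and matrix genes, with median log2 ratios of 11.57 and 9.92 beside 0.33 over all genes. Of 19 collagen processing genes with that count, 18 were past 4-fold, with Serpinh1, the collagen chaperone, and Pcolce leading in UMIs. Endothelial genes were 14 of 15, with a median of 8.66, pan epithelial genes 12 of 13, with a median of 8.80, and medullary epithelial genes 11 of 12, with a median of 9.08.

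The 26 fibroblast-led cells numbered 7, 5 and 14 (0.0859%, 0.0810% and 0.147% of filtered cells), 2 of them in the epithelial arm as well, and held 315923 UMIs, with a median of 12029 per cell. Of their 2533 genes with 20 UMIs, 741 (29.3%) were past 4-fold. Col1a1 had 1180, 294 and 297 UMIs in 7, 5 and 14 cells, or 8376 [7905 to 8868], 4223 [3754 to 4735] and 2817 [2506 to 3156] CPM. The cell with the most held 525, 108 and 75 of these UMIs. Dcn stood at 8525, 7656 and 7161 CPM. Sparc had 1423, 904 and 686 UMIs. Eln, which encodes elastin, had 205, 261 and 144, and Lum, a collagen-binding proteoglycan, had 129, 54 and 86. The p53+/- cells were the deepest, at a median of 18391 UMIs against 12966 and 7112. The fibroblast list sum was 24291, 25641 and 16229 CPM, and the cell with the most gave 24.7%, 35.9% and 17.1% of it. Of 18 endothelial genes, 12 were detected in these cells, and the 5 with 20 UMIs (Cd34, Ly6c1, Ramp2, Aqp1 and Eng) were past 4-fold, with a median log2 ratio of 8.46. At least 5 endothelial genes were found in 3 of the 26 cells, up to 7, while Cdh5, Flt1, Cldn5, Tie1, Sele and Selp were at 0. Their part in the other values was not tested. Thymocyte genes were 0.0946% of their UMIs.

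The fibroblast-led cells fell apart by the capsular gene Pi16. Cells with at least 5 Pi16 UMIs numbered 4, 3 and 5, and the 14 others (3, 2 and 9) had 4 Pi16 UMIs in all. The Pi16 cells had Col1a1 at 9652 CPM, against 1379, and Mfap5 at 5960, against 117. Sema3c had 75 UMIs in 10 of them, against 6 in 3. Ptn, a growth factor on the medullary fibroblast list, had 16 UMIs in 1 Pi16 cell and 258 in 8 of the others, Cxcl13 had 2 against 467 in 5, and Cxcl12, which retains progenitors, had 13 in 4 against 73 in 8. At least 5 Ptn or Cxcl13 UMIs were found in 10 cells (3, 1 and 6), and 1 cell met both this and the Pi16 criterion. Pdgfra was found in 8 cells of each kind. By whole lists the split was less clean, since 13 cells had at least 5 of 9 capsular genes, 10 had at least 5 of 10 medullary fibroblast genes and 5 had both. Cxcl13 lay in 3, 0 and 3 fibroblast-led cells, with 197 of the p53+/- UMIs in 1 cell and 169 of the p53-/- UMIs in 1 cell.

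Growth factors for epithelium and progenitors were found in the fibroblast-led cells, whose sums include the cells with mesothelial or pericyte genes described below. Igf1 had 146, 20 and 49 UMIs in 6, 3 and 7 cells. Fgf7 and Fgf10, mitogens of thymic epithelium, had 18 UMIs in 9 cells and 23 in 6. Bmp4 had 25 UMIs in 10 cells, against 2 in other filtered cells and 1 in epithelial-led cells. Kitl, the ligand of the progenitor receptor Kit, had 19, 6 and 11 UMIs in 3, 4 and 5 cells. Il33, an alarmin of stromal cells, had 43, 32 and 23 UMIs in 7, 4 and 8 cells. Il7 and Dll4, present in epithelial-led cells, were at 0 in the fibroblast-led cells.

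**Figure D5:**
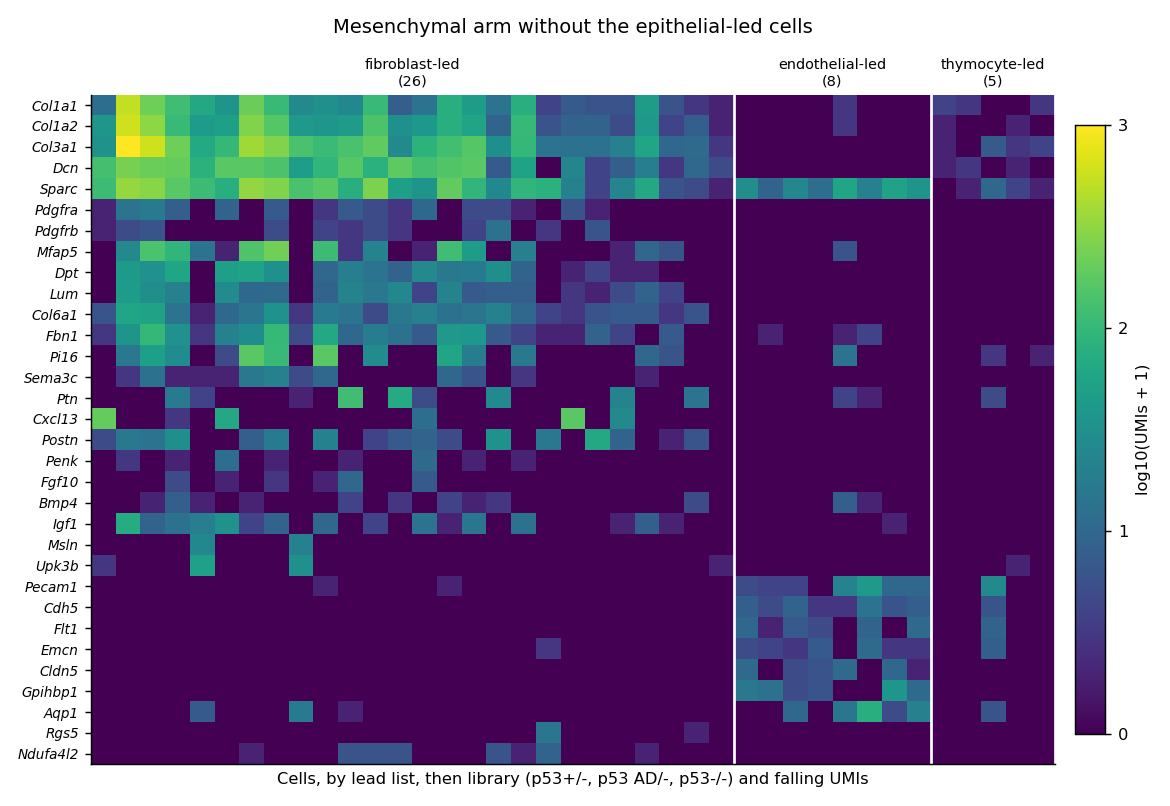
UMIs of 32 genes (vertical axis) in 39 cells of the mesenchymal arm (horizontal axis): 26 led by the fibroblast list, 8 by the endothelial list and 5 by the thymocyte list, as log10 of UMIs plus 1 with the colour scale capped at 3. Pi16 is found at 5 or more UMIs in 12 fibroblast-led cells, Ptn and Cxcl13 lie mostly in others, and Pecam1, Cdh5 and Cldn5 lie mostly in the endothelial-led cells.

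Of the 26 fibroblast-led cells, 2 were also in the epithelial arm, 1 from p53+/- and 1 from p53 AD/-. They had 24 and 20 UMIs of Msln and 51 and 31 of Upk3b, genes of the mesothelium that covers organs, and all 6 mesothelial genes were detected in each. Their keratin UMIs were of Krt8 and Krt18 with 0 of Krt5, Krt17 and Epcam. The mesothelial list reached at most 1 gene in any filtered cell that was not a member. Among other members it reached 3 of 6 genes in epithelial-led p53 AD/- cells and 2 in fibroblast-led p53-/- cells. Msln alone was found in 13 cells of the epithelial arm, with up to 56 UMIs in a cell. The p53-/- cells held 0 such cells. In 5 of the 26 at least 5 of 13 pericyte and smooth muscle genes were detected, up to 8 genes.

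The 8 endothelial-led cells (4, 3 and 1) entered through Sparc, with 8 to 58 Sparc UMIs and 0 of Col3a1. All 8 had at least 5 of 18 endothelial genes, up to 16, against 2 of 23672 other filtered cells. The sorting used this list, and the median depth was 6548.5 UMIs against 2991, so the contrast is a description alone. Of 329 genes with 20 UMIs, 119 (36.2%) were past 4-fold. Aqp1, a water channel, had the highest ratio (9, 95 and 19 UMIs). Cldn5, the tight junction claudin of endothelium, had 19, 19 and 1 UMIs, Gpihbp1, the capillary anchor of lipoprotein lipase, had 36, 37 and 10, and Fabp4, a fatty acid carrier of capillary endothelium, had 553, 151 and 155. A p53 AD/- cell of 8489 UMIs had 37 Vwf, 8 Selp, 8 Ackr1 and 29 Glycam1 UMIs, genes of venules, and 0 of Gpihbp1. The other 7 cells together had 1 Vwf UMI and 0 of Ackr1 and Glycam1. The 5 thymocyte-led cells of this arm had 38 to 107 thymocyte UMIs, and 1 of them, from p53 AD/-, also had 81 endothelial UMIs.

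By genotype, the counts of cells were too small for more than a description. Genes past 2-fold in the epithelial arm numbered 1554 higher (18.6% of 8349) and 1154 lower (13.8%) for p53 AD/- over p53+/-. For p53-/- over p53+/- they were 1351 (15.0% of 9020) and 319 (3.54%), and for p53 AD/- over p53-/- 861 (9.98% of 8630) and 1290 (14.9%). These sums mix Epcam-carried and epithelial-led cells, whose proportions differed between libraries. Within the epithelial-led cells the 3 pairs had 880 and 591 (18.6% and 12.5% of 4725), 897 and 422 (17.2% and 8.10% of 5208), and 725 and 974 (11.9% and 16.0% of 6079). The mesenchymal arm, its 1, 3 and 8 epithelial-led cells included, had 354 and 370 (11.9% and 12.5% of 2970), 690 and 468 (15.9% and 10.8% of 4344), and 419 and 735 (10.5% and 18.4% of 4004). The fibroblast-led cells had 179 and 134 (11.0% and 8.23% of 1629), 202 and 163 (10.7% and 8.60% of 1896), and 152 and 147 (10.8% and 10.5% of 1401). The pairs share libraries and are not independent.

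Counts of cells by kind are given per library as a description, since they rest on few cells and on splits chosen after the data were seen. Epithelial-led cells with at least 10 Ccl21a UMIs were 5 of 10, 4 of 19 and 15 of 27. Those with Aire were 6 of 10, 6 of 19 and 9 of 27, and those with at least 5 cortical genes 2 of 10, 3 of 19 and 11 of 27. The stress list in fibroblast-led cells stood at 3350, 2428 and 10746 CPM, and the capsular list at 3166, 7786 and 1963, with 44.8%, 48.0% and 55.6% of the latter in 1 cell of each library. The part of the stress list in the other values was not tested.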

How the data were processed

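Droplet single-cell RNA libraries of mouse thymus were analysed, 1 per genotype. The deposited values are raw UMI counts per gene and barcode; the authors used Cell Ranger 4.0.0 (per the file headers) and GRCm38, per the submitters' processing notes. The chemistry, annotation and strand setting were not given in the sources used here. Cells were filtered and chosen with Python 3.11.15, numpy 2.4.6, scipy 1.17.1 and pandas 2.3.3. UMIs were summed over the cells of a set in each library, divided by the total of that set (CPM), and given exact Poisson intervals; shares have exact Clopper-Pearson intervals, at 95%, for counting error only. Ratios compare a set with the 23672 filtered cells that were not members, for genes with at least 20 UMIs in the set, with a floor of 3 UMIs over those other cells. The rule for named genes took, per arm, the 25 with the highest ratio among those found in at least 5 cells, the rule genes, Trp53, and up to 5 members with the most UMIs from each of 32 lists (381 genes, 1 not found). Other list members, private genes and genes of single cells that the text names were chosen after their values were seen. Gene positions were those of GENCODE M21 (32235 of 32285 genes matched). The members and lists were chosen with earlier results of these data known, and the sorting by leading list, the splits, the thinning to 5000 UMIs and the private genes were chosen after the data were seen. Doublets were not removed. The ratio scripts were tested on simulated data. No test between genotypes was possible with 1 library each.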

Additional observations from a re-analysis of the deposited data

How the results depend on the processing

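No paired analysis was possible because each genotype had 1 library. None of the values tried was reversed, but levels were not stable: 100 of 135 gene levels recomputed under other settings moved beyond their counting interval, and 41 of 128 list medians moved. With the mean of CPM over cells in place of the summed UMIs, 29 of 45 levels moved. Values are in the order p53+/-, p53 AD/- and p53-/- where 3 are given. With less than 5% mitochondrial UMIs, the p53+/- library held 43 members, 35 in the epithelial and 9 in the mesenchymal arm. With minimums of 2 and 4 UMIs, the p53+/- and p53-/- libraries held 133 and 164 members, and the epithelial arm 120, 46 and 148. With minimums of 6 and 10, p53+/- and p53-/- held 26 and 48 members, 17 and 34 of them in the epithelial arm. Without Epcam, the libraries held 32, 30 and 56 members and the epithelial arm 20 in p53+/- and 39 in p53-/-. Without Sparc, the mesenchymal arm held 9 cells in p53+/- and 7 in p53 AD/-. Requiring at least 2 different genes of the rule left 29 members in p53+/-, with an epithelial arm of 21 in p53+/- and 41 in p53-/- and a mesenchymal arm of 9 in p53+/-. Without members of at least 10 thymocyte UMIs, 23, 24 and 32 members were left, with 13, 19 and 22 in the epithelial arm and 14 in the p53-/- mesenchymal arm. The genes past 4-fold were then 1174 in the epithelial and 930 in the mesenchymal arm. Those past 2-fold in the epithelial arm were 752 for p53 AD/- over p53+/-, 718 for p53-/- over p53+/- and 1016 for p53 AD/- over p53-/-, and in the mesenchymal arm 555 for p53-/- over p53+/- and 596 for p53 AD/- over p53-/-. The cause was not tested. Leaving out members whose barcode occurs in 2 libraries, a setting chosen after seeing the data, moved none of the counts by over 1.5 times. With 10, 19 and 27 epithelial-led cells and 7, 5 and 14 fibroblast-led cells, single cells set many of the levels.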
